A study of Mus musculus with 21 samples.

Results

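Sparc was followed as a single gene, the row of the deposited count table with that symbol (ENSMUSG00000018593), across all 21 libraries; it is 1 of 49510 genes in the table. It was set beside 5 genes by which fibroblasts, the matrix-making cells of connective tissue, are commonly recognised: Dcn, Mgp, Col1a1, Col1a2 and Col3a1. The T cells behind the libraries were taken 7 days after a myocardial infarction, in which heart muscle dies for want of blood; the mice were of the Foxp3-GFP strain and 8 weeks old. Every group carries the Foxp3-GFP reporter, which marks regulatory T cells (Tregs), and every group comes from infarcted animals, so there is no uninjured heart among them. The 7 groups of 3 libraries are Tregs of the heart, conventional T cells (Tconvs) of the heart, Tregs of the mediastinal lymph node, into which the heart drains (MLN), Tregs of a non-draining lymph node (NDLN), Tregs of the spleen, Tconvs of the NDLN and Tconvs of the spleen. Cells were sorted with magnetic beads and again by flow cytometry, and libraries were made with a kit for very small amounts of RNA, per the labels' protocols. The labels do not say whether replicates came from separate animals or pools, so p-values measure the spread between these libraries, which may be technical.

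Sparc encodes the matricellular protein also called osteonectin or BM-40, a secreted glycoprotein that binds calcium and collagen and modulates how matrix is assembled rather than forming its scaffold. Fibroblasts, endothelial cells and platelets are known sources of it. In the infarcted heart SPARC is known for its part in the maturation of the collagen scar.

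Libraries held 14515387 to 28323649 counts, with 9469 to 16239 genes at 1 count or more. Foxp3, the transcription factor that defines Tregs, was at 248, 142 and 113 CPM (counts scaled to library size, here with TMM factors, as for all levels of single genes below unless said otherwise) in heart Tregs, against 0.0450, 0.164 and 0.0437 in heart Tconvs. Cd3e, a chain of the T cell receptor complex, was at 284, 205 and 319 CPM in heart Tregs and at 267, 226 and 432 CPM in heart Tconvs. All 10 genes of a T cell list reached 1 CPM in each heart library. One division of the libraries cut across the groups. Of 234 genes that were above 5 CPM in at least 4 libraries and below 0.5 CPM in all the others, with at least 4 libraries on each side, 26 set heart Treg 1, heart Tconv 1, heart Tconv 2, MLN Treg 1 and MLN Treg 2 apart from the other 16, while the next most frequent division had 3 genes. What that division stands for is not given in the sources used here.

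Sparc lies on chromosome 11, 55394500 to 55423183, minus strand (GRCm38, the assembly that mm10 stands for; GENCODE M21), is protein coding, and its exons cover 3788 bases.  The RefSeq window of 250 bases before to 50 after a gene's start is shown for Sparc and for those of the 5 fibroblast genes that have an entry, Col1a2 and Col3a1, because their levels moved with that of Sparc across the libraries. All are 5′ to 3′ in the gene's own direction (build GRCm38.p6), with capitals marking matches on either strand to the TATA box (TATAAA), to the CCAAT box, to the GC box (GGGCGG) or to the repeat CTCTCTCT.
Sparc, chr11:55420031-55420330, minus strand: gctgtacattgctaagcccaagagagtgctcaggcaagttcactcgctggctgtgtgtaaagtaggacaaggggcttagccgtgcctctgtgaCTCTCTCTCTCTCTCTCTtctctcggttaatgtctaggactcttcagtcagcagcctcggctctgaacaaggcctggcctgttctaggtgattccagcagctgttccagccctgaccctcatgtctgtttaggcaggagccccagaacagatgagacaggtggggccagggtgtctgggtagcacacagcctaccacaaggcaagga
Col1a2, chr6:4505368-4505667, plus strand: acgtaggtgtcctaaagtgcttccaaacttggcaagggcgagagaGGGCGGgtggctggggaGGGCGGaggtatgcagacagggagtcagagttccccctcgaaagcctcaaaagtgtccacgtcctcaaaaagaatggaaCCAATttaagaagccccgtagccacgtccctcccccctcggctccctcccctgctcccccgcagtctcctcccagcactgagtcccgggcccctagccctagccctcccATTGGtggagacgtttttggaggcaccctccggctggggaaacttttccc
Col3a1, chr1:45311288-45311587, plus strand: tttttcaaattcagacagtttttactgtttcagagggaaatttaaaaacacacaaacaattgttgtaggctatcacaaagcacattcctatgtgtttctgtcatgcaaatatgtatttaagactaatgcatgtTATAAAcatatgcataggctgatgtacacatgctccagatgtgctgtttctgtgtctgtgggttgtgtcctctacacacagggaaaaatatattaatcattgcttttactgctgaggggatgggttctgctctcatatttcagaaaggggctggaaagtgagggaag
The Sparc window holds no match to the TATA, CCAAT or GC box, and 6 overlapping matches to CTCTCTCT, which form a single pyrimidine run; that motif was searched for after the window had been read. CTCTCTCT occurs in 4.37% of the 32851 windows of this length. The Col1a2 window holds 2 matches to the CCAAT box and 2 to the GC box, which occur in 37.4% and 35.7% of the windows. The Col3a1 window holds 1 match to TATAAA, a motif of 13.6% of the windows. The 3 windows share none of these 4 motifs. These are matches of letters and not sites of binding. The Sparc and Col1a2 windows lie within the GENCODE spans of their genes, since some annotated transcripts start further upstream.

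Sparc transcripts were abundant in 5 of the 6 heart libraries and close to absent in the lymphoid ones. Counts were 885, 3677 and 3271 in heart Tregs and 3, 2294 and 2017 in heart Tconvs. They were 0, 0 and 67 in MLN Tregs, 4, 2 and 0 in NDLN Tregs, 1, 1 and 0 in spleen Tregs, 2, 2 and 0 in NDLN Tconvs and 5, 0 and 0 in spleen Tconvs. Thus heart Tconv 1 stood among the lymphoid libraries, and a single lymphoid library, MLN Treg 3, held more than 5 counts. On the CPM scale Sparc was at 39.0, 145 and 124 in heart Tregs (103 ± 56.3, SD, n = 3) and at 0.135, 94.1 and 88.2 in heart Tconvs (60.8 ± 52.6). The MLN Tregs were at 0, 0 and 3.04 CPM, and the other 12 lymphoid libraries lay between 0 and 0.216 CPM. Since these are bulk samples, fewer cells that carry the transcript and less of it per cell cannot be told apart.

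**Figure D1:**
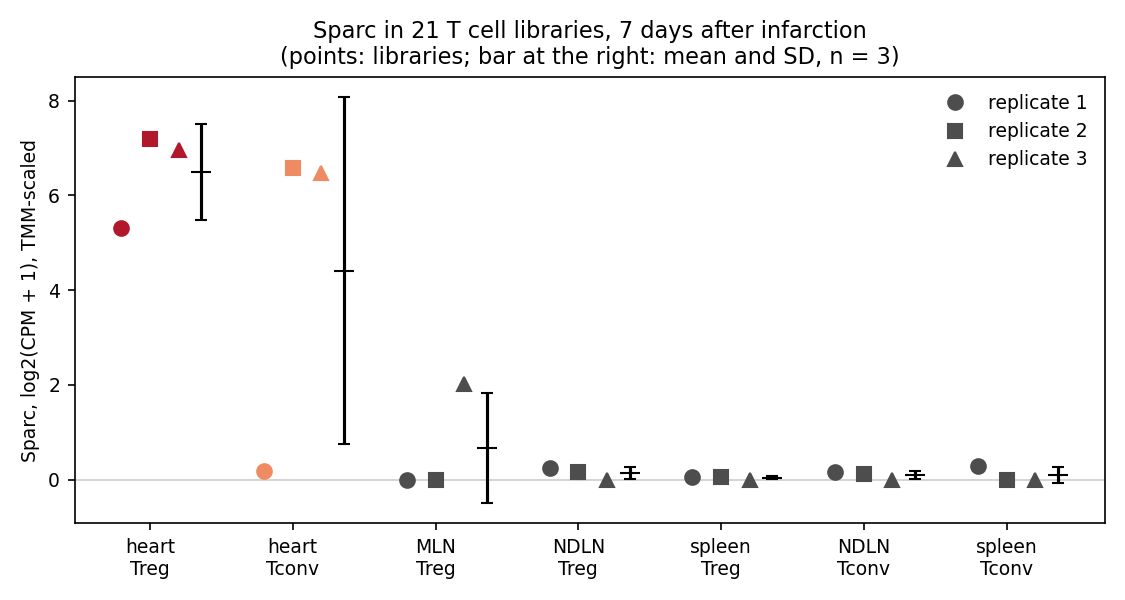
Sparc in each of the 21 libraries as log2(CPM + 1) on the vertical axis, grouped by tissue and cell type along the horizontal axis; points are libraries, with a symbol for each replicate number, and the bar beside them is the mean and SD (n = 3). All 3 heart Tregs and 2 of 3 heart Tconvs lie above every lymphoid library, and heart Tconv 1, at 0.135 CPM, lies among them.

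In total 12147 Sparc counts fell in the 6 heart libraries and 84 in the 15 lymphoid ones, of which MLN Treg 3 held 67. A library at 0 counts still allows a level of up to 0.107 to 0.207 CPM (3 counts of its total; this and the intervals below cover counting error only, and the reads carry no molecular identifiers). Per length, Sparc stood at 36.2, 30.5 and 12.4 CPM of the library total per kilobase in heart Tregs 2, 3 and 1, which placed it at rank 1470, 1681 and 3651 of all genes. In heart Tconvs 2 and 3 it stood at 30.2 and 23.8 CPM per kilobase, rank 2030 and 2236. In heart Tconv 1 it stood at 0.0456 CPM per kilobase, rank 14392. In 5 heart libraries Sparc therefore belonged to the upper part of the detected genes, and in heart Tconv 1 to the lowest.

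Ordered by mean, the groups ran heart Treg, heart Tconv, MLN Treg, NDLN Treg, spleen Tconv, NDLN Tconv and spleen Treg (103, 60.8, 1.01, 0.102, 0.0722, 0.0669 and 0.0264 CPM). The ranges of every pair of neighbours in this order overlapped, the heart Tconvs and MLN Tregs through heart Tconv 1 alone. The gap that separated libraries lay between 39.0 CPM, the lowest of the other 5 heart libraries, and 3.04 CPM in MLN Treg 3.

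The design asks whether T cells of the injured heart differ from those of lymphoid organs. Averaged over Tregs and Tconvs, and set against the mean of the spleen and NDLN groups (the MLN Tregs do not enter), Sparc was higher in heart by 10.20 on the log2 scale (SE 1.37, adjusted p = 9.49e-05 in edgeR's quasi-likelihood test with Benjamini-Hochberg adjustment over 14996 genes). That contrast called 12.9% of the genes tested in either direction, 8.42% as higher in heart, and the median gene stood at 0.26. Of its calls 1263 were higher and 668 lower in heart, or 1676 and 500 without scaling factors, under which Sparc was at 10.39. As summed counts this is 12147 in the 6 heart libraries and 17 in the 12 spleen and NDLN libraries, a ratio of CPM of 1490 (95% interval 930.0 to 2558, exact). The call held with each library left out, with log2 values of 9.97 to 11.15. Among the 16 libraries on the larger side of the division it was 10.66 (SE 1.12, adjusted p = 0.000158), and with the set as a covariate 11.96 (SE 1.48, adjusted p = 0.000158).

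Group by group, Sparc missed the threshold in edgeR although its log2 fold changes were large. In heart Tregs over spleen Tregs it was 11.65 (SE 2.82, adjusted p = 0.121), in a contrast that called 0.147% of genes; the spleen Tregs held 2 counts in all, so that the ratio of CPM, 4008, has an interval of 1109 to 33103. Over NDLN Tregs it was 9.92 (SE 2.63, adjusted p = 0.0941; 0.533% of genes called) and over MLN Tregs 6.66 (SE 2.28, adjusted p = 0.487; 0.0667% called). Without MLN Treg 3 the MLN value was 14.16 (SE 3.28, adjusted p = 0.300), against MLN libraries that were then all at 0, so its size depends on the prior count. In heart Tconvs over spleen Tconvs Sparc was 9.58 (SE 2.60, adjusted p = 0.0919; 0.473% called), or 13.40 (adjusted p = 0.184) without spleen Tconv 1, the one library of that group with Sparc counts, and over NDLN Tconvs 9.63 (SE 2.62, adjusted p = 0.0510; 2.88% called).

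These calls depended on the tool. DESeq2 called Sparc in all 5 pairwise contrasts of heart with lymphoid T cells, with adjusted p from 9.54e-07 against spleen Tregs to 0.00544 against MLN Tregs. It also called far more of all genes there, 9.02%, 12.2% and 7.42% in heart Tregs against spleen, NDLN and MLN Tregs, and 9.8% and 18.0% in heart Tconvs against spleen and NDLN Tconvs. Limma-voom called Sparc in the 3 Treg contrasts (adjusted p = 0.00137, 0.00620 and 0.0166 against spleen, NDLN and MLN; 1.89%, 3.05% and 1.51% of genes called). It did not call Sparc in heart Tconvs against spleen or NDLN Tconvs (adjusted p = 0.0659 and 0.0612; 1.81% and 7.0% called).

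**Figure D2:**
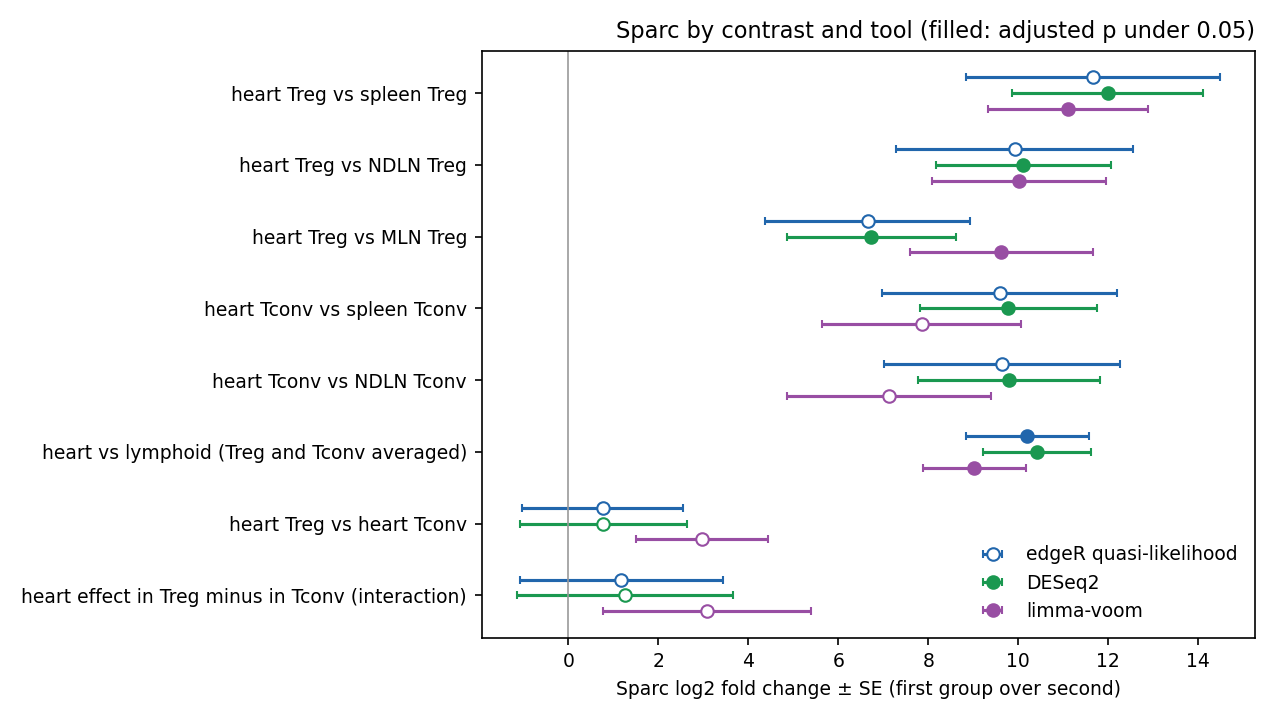
Log2 fold change of Sparc with its SE on the horizontal axis for 8 contrasts, the first-named group over the second, by edgeR, DESeq2 and limma-voom; filled points have an adjusted p under 0.05. The 5 contrasts of heart with a lymphoid group lie between 6.66 and 11.99 in edgeR and DESeq2, and the edgeR point is filled in the averaged contrast only.

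The exact two-sided permutation test over libraries, on the mean of log2(CPM + 1), gave a difference of 6.21 between 3 heart Tregs and 9 lymphoid Tregs (p = 0.00909, the smallest this design allows; adjusted over the 3 tests 0.0273), with Sparc higher in 3 of 3 heart libraries than in any lymphoid Treg library. Between 3 heart Tconvs and 6 lymphoid Tconvs the difference was 4.32 (exact permutation p = 0.0476, adjusted 0.0714; smallest possible 0.0238), with 2 of 3 heart libraries above all 6. Leaving out any one heart Tconv library raised that p to 0.0714 or 0.143, and without heart Tconv 1 the value of 0.0714 is the smallest possible.

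Heart Tregs and heart Tconvs were not told apart in Sparc. The log2 fold change of heart Tregs over heart Tconvs was 0.76 (edgeR, SE 1.79, adjusted p = 1; 0.0667% of genes called), against 2.97 in limma-voom (SE 1.48, adjusted p = 0.437), and the exact permutation test gave a difference of 2.08 (p = 0.5; 3 against 3 libraries cannot go below 0.1). That difference rested on heart Tconv 1: without it the permutation difference was -0.03 and the edgeR value 0.20. The heart effect in Tregs minus that in Tconvs was 1.18 (SE 2.26, adjusted p = 1.00), in a contrast that called 0.00667% of genes, a single gene, H2-Aa of MHC class II; limma-voom gave 3.07 (SE 2.31, adjusted p = 0.617). A p that misses the threshold does not show that the heart Tregs and Tconvs are alike: with this SE the 2 groups could differ by several-fold either way.

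The 6 heart libraries were then compared gene by gene with the fibroblast transcripts. Dcn, which encodes the small proteoglycan decorin that binds collagen fibrils, was at 14.4, 323 and 168 CPM in heart Tregs and at 1.13, 58.3 and 16.3 CPM in heart Tconvs. Mgp, which encodes matrix Gla protein, an inhibitor of calcification, was at 11.8, 283 and 128 CPM in heart Tregs and at 0.0450, 30.3 and 33.3 CPM in heart Tconvs. Both were lowest in heart Tconv 1, next lowest in heart Treg 1, and highest in heart Treg 2, as Sparc was. For Dcn the next lowest place rested on the TMM factors: by CPM of the library total it was held by heart Tconv 3, at 16.7.

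The fibrillar collagen genes had lower means over the heart libraries. Col1a1, the alpha-1 chain of type I collagen, was at 0.925, 12.8 and 49.8 CPM in heart Tregs and at 0, 4.35 and 19.6 CPM in heart Tconvs. Col1a2, the alpha-2 chain of the same trimer, was at 20.7, 18.2 and 29.8 CPM in heart Tregs and at 0, 13.5 and 12.02 CPM in heart Tconvs. Col3a1, the chain of type III collagen, was at 0.440, 43.0 and 29.8 CPM in heart Tregs and at 0, 20.5 and 43.3 CPM in heart Tconvs. All 3 had 0 counts in heart Tconv 1. Their highest library differed: heart Treg 3 for Col1a1 and Col1a2, and heart Tconv 3 for Col3a1. In heart Treg 3 the counts of Col1a2 and Col3a1 were both 786.

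**Figure D3:**
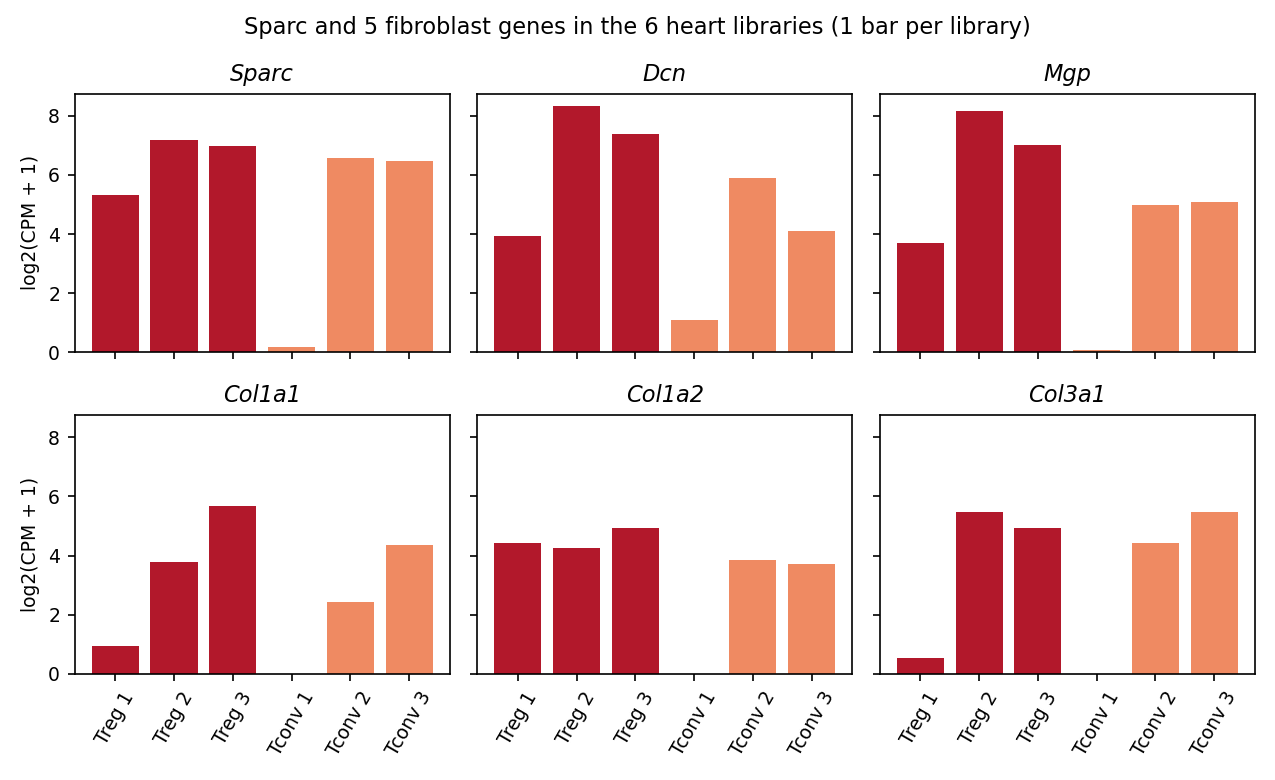
Level of Sparc and of the 5 fibroblast genes as log2(CPM + 1) on the vertical axis in the 3 heart Treg and the 3 heart Tconv libraries, 1 bar a library. In heart Tconv 1 all 6 genes are at 1.13 CPM or less, and Sparc is the most even of the 6 over the other 5 libraries apart from Col1a2.

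Per length of exon, the mean over the 6 heart libraries was 21.6 CPM per kilobase for Sparc, against 68.3 for Mgp, 16.6 for Dcn, 2.33 for Col3a1, 2.22 for Col1a1 and 1.26 for Col1a2. Sparc thus stood between Mgp and Dcn and well above the collagens on that scale.

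Over the 6 heart libraries the coefficient of variation (CV, the SD as a percentage of the mean) of the CPM level was 65.9% for Sparc, and 134%, 131%, 129%, 85.4% and 63.4% for Mgp, Dcn, Col1a1, Col3a1 and Col1a2. Leaving out heart Tconv 1 brought it to 41.1% for Sparc, against 117%, 113%, 111%, 65.2% and 37.4% for the same genes. In both settings Sparc had the next to lowest CV, above Col1a2. Across the 5 other heart libraries the highest Sparc level was 3.73 times the lowest, while the ratio was 2.48 for Col1a2, 22.4 for Dcn, 23.9 for Mgp, 53.9 for Col1a1 and 98.2 for Col3a1. Relative to the summed T cell list the CV of Sparc over the 6 libraries was 64.6%.

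Heart Tconv 1 was low in all of these genes by a wide margin. The median Sparc level of the other 5 heart libraries, 114 CPM of the library total, was 662 times its 0.173 CPM (3 counts, 95% exact interval 0.0356 to 0.505). For Mgp, with 1 count there, the same ratio was 639, and for Dcn, with 25 counts, 49.2. For Col1a1, Col1a2 and Col3a1, each at 0 counts there, the other 5 libraries were at least 69.9-fold, 99.0-fold and 161-fold higher by their medians, taking 3 counts as the floor of that library. Its depth, 17360914 counts, was the lowest of the heart libraries, and its 15373 genes with a count were the second most of them.

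The share of Sparc among the counts of the 6 genes was not the same in every heart library. It was 44.7% (95% exact binomial interval 42.5 to 46.9), 17.6% (17.1 to 18.1) and 23.4% (22.7 to 24.2) in heart Tregs 1, 2 and 3. It was 10.3% of 29 counts (2.19 to 27.4), 42.6% (41.3 to 43.9) and 41.4% (40.0 to 42.8) in heart Tconvs 1, 2 and 3. The intervals of heart Tregs 2 and 3 lay below those of heart Treg 1 and heart Tconvs 2 and 3, whose intervals overlapped one another. The interval of heart Tconv 1, with its 29 counts, also lay below those 3 and covered those of heart Tregs 2 and 3. The summed CPM of the 5 fibroblast genes, which enter the denominator of the share, was 58.2, 642 and 377 CPM of the library total in heart Tregs and 1.498, 154 and 127 in heart Tconvs. In the 5 libraries other than heart Tconv 1 the ratio of Sparc counts to those of the 5 genes together ranged from 0.214 to 0.807. Against single genes it ranged from 0.450 to 5.39 for Dcn, 0.513 to 3.29 for Mgp, 2.49 to 42.1 for Col1a1, 1.89 to 8.01 for Col1a2 and 2.04 to 88.5 for Col3a1.

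In the lymphoid libraries counts of the 6 genes were low and their proportions varied. MLN Treg 3, with 67 Sparc counts, held 40 counts of Col1a2 and none of Dcn, Mgp, Col1a1 or Col3a1. Spleen Tconv 1 held 5 Sparc counts and 0 of the 5 genes. Every other lymphoid library with Sparc counts also held some counts of the 5 genes. In spleen Treg 2 these were 1 of Sparc and 7 of the 5 genes, and in NDLN Treg 2 they were 2 and 11. Spleen Tconv 2, NDLN Treg 1 and spleen Treg 1 held 83, 116 and 55 counts of the 5 genes, and 0, 4 and 1 of Sparc. The summed CPM of the 5 genes was 0 to 5.22 over the 15 lymphoid libraries, against 58.2 to 642 in heart Tregs and 1.498 to 154 in heart Tconvs.

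In the averaged contrast of heart with lymphoid T cells all 5 fibroblast genes were called as higher in heart, by 10.60 on the log2 scale for Dcn (SE 1.11), 11.16 for Mgp (SE 1.19), 10.19 for Col3a1 (SE 1.65), 7.13 for Col1a2 (SE 1.88) and 6.87 for Col1a1 (SE 1.71), with adjusted p = 7.33e-06, 1.37e-05, 0.00112, 0.0192 and 0.0163 in edgeR. That contrast called 8.42% of all genes as higher in heart, and the 5 genes could pass the filter on low counts through heart alone. No lymphoid library held more than 4 counts of Dcn, 1 of Mgp or 2 of Col3a1. Group by group, Dcn was called in all 5 contrasts of heart with a lymphoid group, which called 0.0667% to 2.88% of all genes. Mgp was called in 4 of them, and Col1a1, Col1a2 and Col3a1, like Sparc, in none. None of the 6 was called in heart Tregs against heart Tconvs.

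The genes whose level followed Sparc most closely were matrix genes. Of 11515 protein-coding genes, 9 of the 10 with the highest Pearson correlation with Sparc on the log2-CPM scale over 21 libraries were Mgp (0.951), Bgn (0.943), Lum (0.936), Postn (0.931), Mfap5 (0.927), Dcn (0.925), Col3a1 (0.919), Fn1 (0.891) and Col1a2 (0.874). They encode matrix Gla protein, the proteoglycans biglycan and lumican, periostin, a microfibril glycoprotein, decorin, a type III collagen chain, fibronectin and a type I collagen chain. All 9 are in the fibroblast list, which was drawn up with earlier results of these data known. Col1a1 ranked 25th, at 0.808. Spearman's rho of the 9 lay lower, between 0.574 for Dcn and 0.733 for Col3a1, and r over the 7 group means between 0.948 and 0.994. The points share tissue: in all 15 lymphoid libraries each of the 9 genes was at 3.15 CPM or less, so r reflects the step between heart and lymphoid libraries. Cd3e had an r of 0.557 with Sparc, and Foxp3 of 0.130.

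Over the 6 heart libraries alone, 4 of the 5 highest were Odf2 (r = 0.992), Col1a2 (0.974), Timm23 (0.969) and Serpinf1 (0.967), followed at rank 7 by Mgp (0.962); Cd3e was at 0.0461. With 6 points, of which heart Tconv 1 lies far from the others, these values are given as a description of the libraries. Odf2, which encodes a centrosomal protein, was at 11.9, 23.1 and 21.9 CPM in heart Tregs and at 2.34, 18.7 and 15.4 CPM in heart Tconvs, and Timm23, of the mitochondrial import channel, at 142, 181 and 178 CPM in heart Tregs and at 104, 175 and 166 CPM in heart Tconvs. Both were also present in lymphoid libraries, at up to 30.0 and 236 CPM.

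**Figure D4:**
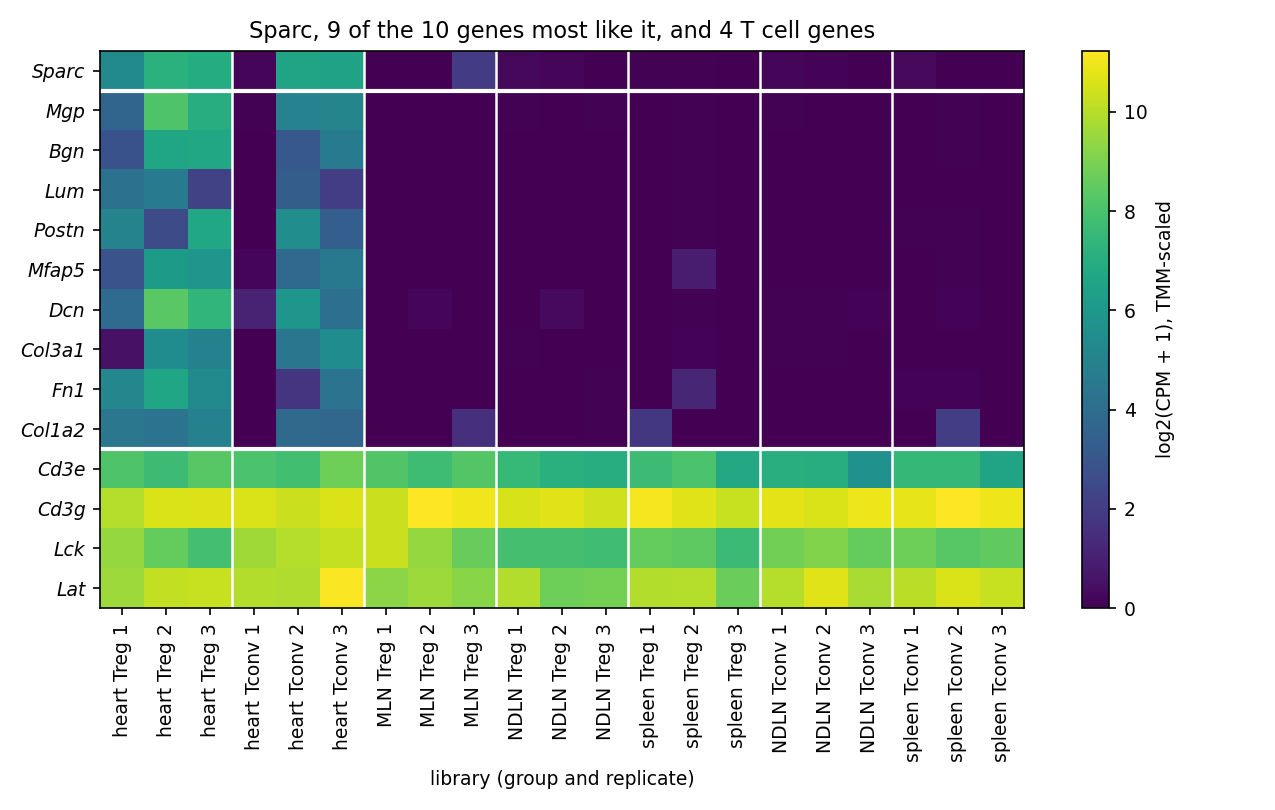
Level as log2(CPM + 1), by colour, of Sparc, 9 of the 10 genes most like it over 21 libraries and 4 T cell genes (rows) in each library (columns, heart Tregs first). In the lymphoid libraries the 9 genes are at 3.15 CPM or less, and in heart Tconv 1 Dcn, at 1.13 CPM, is the highest of them, while Cd3e is at 50.2 CPM or more in every library.

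The wider fibroblast list moved with Sparc in the same libraries. Of its 25 members 14, 18 and 20 reached 1 CPM in heart Tregs 1, 2 and 3, and 4, 17 and 16 in heart Tconvs 1, 2 and 3, against 0 to 3 in lymphoid libraries. Their summed level was 270, 1077 and 857 CPM in heart Tregs, 29.5, 390 and 274 CPM in heart Tconvs and 0.408 to 78.4 CPM in the lymphoid libraries. In the averaged contrast 18 members passed the filter on low counts, 16 were called as higher in heart and 0 as lower, where 8.42% of all genes were called as higher; a member could pass that filter through its level in heart alone. The median over these 18 was 9.64 on the log2 scale, or 9.25 with the 2 genes at 0 in spleen and NDLN set to their bound, against 0.26 over all genes. Without heart Tconv 1, 18 of 20 were called (4.97% of all genes called as higher), and among the 16 libraries on the larger side 10 of 22 (0.811% of all genes). Bgn, for biglycan, was at 6.03, 99.0 and 104 CPM in heart Tregs and at 0, 7.59 and 22.7 CPM in heart Tconvs. Postn, for the matricellular protein periostin, was at 31.1, 5.14 and 101 CPM in heart Tregs and at 0, 44.2 and 9.09 CPM in heart Tconvs. Fn1, for fibronectin, was at 35.4, 99.3 and 39.0 CPM in heart Tregs and at 0, 2.22 and 18.2 CPM in heart Tconvs. Bgn, Postn, Fn1 and Lum were all at 0 counts in heart Tconv 1. Pdgfra, a receptor that marks cardiac fibroblasts, held 0, 0 and 0 counts in heart Tregs and 0, 1 and 5 in heart Tconvs, and Tcf21, a transcription factor of the same cells, 0 in all 6. Fstl1 and Gsn, which other cells also express, stood at 8.29 and 9.46 CPM in heart Tconv 1.

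Other cell types known to make Sparc, or to be present in an infarct, were followed by their own lists. Of 15 endothelial genes, 2 to 5 reached 1 CPM in heart Tregs and 2 to 6 in heart Tconvs, against 1 to 3 in lymphoid libraries. Cdh5, the cadherin of endothelial junctions, held 0, 40 and 0 counts in heart Tregs and 0, 0 and 44 in heart Tconvs, and Tie1 and Cldn5 were at 0 in all 6 heart libraries. Pecam1, which T cells also carry, was at 13.05 to 87.9 CPM in heart and 13.7 to 93.4 CPM in lymphoid libraries. Fabp4, a fatty acid carrier of capillaries and adipocytes, was at 185 CPM in heart Treg 2 and at 4.196 CPM or less in the other heart libraries. Platelet genes were seen mainly in heart Treg 3, where Pf4, platelet factor 4, was at 46.7 CPM and Ppbp and Clec1b at 15.3 CPM, while Itga2b, the platelet integrin chain, was at 0 in all 6. The platelet list summed to 0 CPM in heart Treg 2 and to 78.0 CPM in heart Treg 3.

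Of 10 pericyte and smooth muscle genes 0 to 3 reached 1 CPM in a heart library, and of 12 cardiomyocyte genes 1 to 4; Tnni3 and Nppa were at 0 in all 6. Actc1, cardiac actin, held 0, 417 and 0 counts in heart Tregs and 15, 0 and 321 in heart Tconvs, and 0 in every lymphoid library. Mb, myoglobin, held 35 counts in heart Treg 2 and 57 in heart Tconv 3, and Myl2, a myosin light chain, 100 in heart Tconv 3, with 2 or fewer in the other heart libraries. Ttn, titin, was at 7.05, 3.76 and 46.2 CPM in heart Tregs and at 0.0901, 2.87 and 11.5 CPM in heart Tconvs, against 1.65 to 131 CPM in lymphoid libraries. In heart Tconv 1, the library with almost no Sparc, 7 of 12 macrophage genes reached 1 CPM, against 1 to 3 in the other heart libraries: C1qa, C1qb and C1qc, the chains of complement C1q, held 291, 706 and 203 counts there, and at most 1 count in the other 5. Lyz2, lysozyme, was at 63.2 CPM there and at 9.03 CPM or less in the others, while Csf1r was at 0 in all 6. Other members were higher elsewhere: Cd68 held 754 counts in heart Treg 1 and 423 in heart Tconv 1. Lgmn held 678, 1546 and 1700 in heart Tregs and 50, 25 and 428 in heart Tconvs. In lymphoid libraries 1 to 5 of the 12 macrophage genes reached 1 CPM. The list summed there to 4.58 to 160 CPM of the library total, against 182 in heart Tconv 1, and Lyz2 reached 1780 counts, against 1403. In the averaged contrast 1 of 4 endothelial, 1 of 2 pericyte and smooth muscle, 1 of 3 cardiomyocyte, 0 of 6 macrophage and 0 of 1 platelet genes that passed the filter were called as higher in heart, namely Egfl7, Acta2 and Actc1, beside 8.42% of all genes. The summed T cell list was 7750, 7568 and 7414 CPM in heart Tregs and 7493, 6794 and 9570 CPM in heart Tconvs, so that heart Tconv 1 lay within the range of the others. Whether any of these transcripts came from the cells that carried Sparc was not tested.

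**Figure D5:**
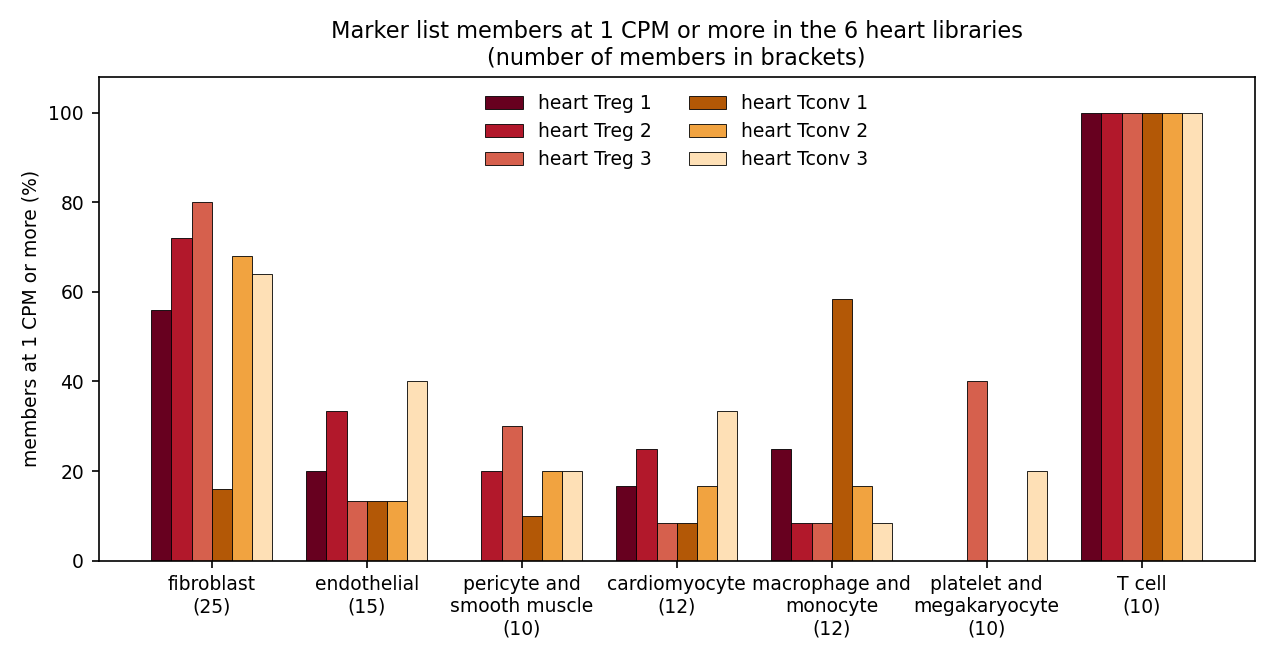
Percentage of the members of 7 marker lists that reached 1 CPM in each of the 6 heart libraries, heart Tregs left of heart Tconvs. In heart Tconv 1, 4 of 25 fibroblast and 7 of 12 macrophage genes did so, while the other 5 libraries had 14 to 20 fibroblast and 1 to 3 macrophage genes.

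Among the other members of the SPARC family, which share its calcium-binding extracellular domain, none followed it through the heart libraries. Fstl1, a secreted follistatin-like glycoprotein, was at 6.87, 50.1 and 82.0 CPM in heart Tregs and at 8.29, 6.73 and 0 CPM in heart Tconvs. Smoc2, a basement membrane-associated modular protein, was at 0, 0 and 37.6 CPM in heart Tregs and at 0, 2.17 and 0.787 CPM in heart Tconvs. Both were called as higher in heart in the averaged contrast (edgeR adjusted p = 0.000993 and 0.0249), beside 8.42% of all genes. They were among the 3 family members other than Sparc that passed the filter, which Smoc2 could pass through its level in heart alone. Of the 1062 heart counts of Smoc2, 991 came from heart Treg 3, and the lymphoid libraries held 0. Sparcl1, or hevin, the closest relative of Sparc, reached 12.7 CPM in heart Treg 3 and 14.0 CPM in heart Tconv 3 only, with 0.0395 CPM or less in the other 4, and did not pass the filter. Spock1 and Spock3, of the testican proteoglycans, had 0 counts in all 21 libraries. Spock2, a testican too, was at most 6.03 CPM in heart and 6.30 CPM in lymphoid libraries, and Smoc1 at most 0.262 CPM in heart. For Spock2 the averaged contrast gave a log2 of -0.07 (edgeR adjusted p = 0.945), which does not show that it was unchanged. Its heart counts were 0, 0 and 1 in Tregs and 15, 7 and 138 in Tconvs. Without heart Tconv 1, 3 of 4 family members that passed were called as higher in heart, and among the 16 libraries on the larger side 0 of 5, beside 4.97% and 0.811% of all genes.

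Of 19 receptors and binding partners of SPARC, 9 passed the filter, and 2 were called as higher in heart, both integrin chains, beside 8.42% of all genes. Itgb1, the beta-1 chain, was at 117, 29.8 and 196 CPM in heart Tregs and at 622, 380 and 262 CPM in heart Tconvs, against a median of 56.8 CPM in the lymphoid libraries (log2 1.92, SE 0.50, adjusted p = 0.0156). Itgav, the alpha-v chain, was at 233, 183 and 143 CPM in heart Tregs and at 35.5, 39.5 and 31.2 CPM in heart Tconvs, against a lymphoid median of 16.2 CPM (log2 2.50, SE 0.80, adjusted p = 0.0439). Itgb1 was highest in heart Tconv 1. Lymphoid libraries held up to 4804 raw counts of Itgb1, against 2666, 753 and 5163 in heart Tregs and 6000 or more in heart Tconvs. Of Itgav they held up to 1673, against 3780 or more in heart Tregs and 713 to 962 in heart Tconvs. The counts thus overlapped for both genes. Neither was called without heart Tconv 1, or among the 16 libraries on the larger side.

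Of the 13 other matricellular genes 7 passed the filter, and Postn, Ccn2 and Ccn4 were called as higher in heart, beside 8.42% of all genes. Ccn2, connective tissue growth factor, was at 1.67, 0.0791 and 10.7 CPM in heart Tregs and at 0, 19.3 and 0 CPM in heart Tconvs. Ccn4, a target of Wnt signalling, was at 23.8, 0 and 0 CPM in heart Tregs and at 4.91, 0.0821 and 0 CPM in heart Tconvs. Spp1 (osteopontin) and Thbs1 (thrombospondin-1), which reached 23.8 and 24.0 CPM in a heart Treg library, were not called (adjusted p = 0.0559 and 0.286). Ccn2, Ccn4, Spp1 and Thbs1 each reached 1 CPM in at most 3 of the 6 heart libraries, against 5 of 6 for Sparc and for Postn. Among the 16 libraries on the larger side 1 of 8 matricellular genes was called, beside 0.811% of all genes.

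Of 17 genes for the processing and crosslinking of collagen 9 passed the filter and 6 were called as higher in heart, with 0 lower, beside 8.42% of all genes higher. A member could pass that filter through its level in heart alone, and Serpinh1 and Adamts2 held 0 counts in every lymphoid library. P4ha1 and P4hb, the subunits of the prolyl 4-hydroxylase that stabilises the collagen helix, were at 52.0 to 176 and 55.2 to 236 CPM in heart Tregs and at 27.3 to 144 and 80.5 to 169 CPM in heart Tconvs, against lymphoid medians of 33.2 and 49.7 CPM (log2 1.82, SE 0.45, and 1.98, SE 0.56; adjusted p = 0.0130 and 0.0256). Their levels in heart Tconv 1, 86.8 and 169 CPM, lay within the range of the other heart libraries. Lymphoid libraries held up to 3429 and 3659 raw counts of them, against up to 4628 and 6218 in heart. The MLN Tregs do not enter the averaged contrast. The whole list summed to 133 to 432 CPM of the library total in MLN Tregs and to 16.1 to 291 in the spleen and NDLN groups. In heart Tregs it summed to 124 to 443 and in heart Tconvs to 140 to 405. Serpinh1, the collagen chaperone, was at 0, 10.9 and 14.6 CPM in heart Tregs and at 0, 0.615 and 2.40 CPM in heart Tconvs, with Loxl1, Pcolce and Adamts2 at 5.68 CPM or less in every heart library. Without heart Tconv 1, 5 of 11 genes of the list that passed were called, and among the 16 libraries on the larger side 0 of 15 (edgeR), beside 4.97% and 0.811% of all genes. Of 13 basement membrane genes 7 passed the filter and 1 was called as higher in heart (8.42% of all genes), Hspg2 (perlecan), at 1.94, 2.33 and 2.43 CPM in heart Tregs and 0, 0.0410 and 5.46 CPM in heart Tconvs.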

How the data were processed

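RNA sequencing counts per gene were measured in 21 libraries. The authors deposited 1 table of raw counts for 49510 genes, and per the submitters' processing notes CASAVA 1.8.2, HISAT2 and HTSeq 0.6.0 were used with mm10; which gene models, strand option and rule for multiply matching reads were used is not given in the sources used here. All 21 columns were matched to samples by their labels. Computed here were library totals, CPM, TMM factors (0.798 to 1.35) and 1 fit over the 7 groups with edgeR 4.0.16 (quasi-likelihood F-test, robust; R 4.3.3) on 14996 genes that passed filterByExpr (minimum count 10, minimum total 15). P-values were adjusted by Benjamini-Hochberg and called under 0.05. A gene of any list could pass the filter through its level in heart alone, and such a gene could hardly be called as lower there. The biological coefficient of variation was 1.48, which limits the precision with 3 libraries a group. The SE given for edgeR is the absolute log2 fold change divided by the square root of its F statistic, so it is approximate. DESeq2 1.42.0, limma 3.58.1 (voom), other scalings, filters and sets of libraries were alternatives, and scripts were tested on simulated data. Exact permutation tests used log2(CPM + 1) in scipy 1.17.1. Gene spans are from GENCODE M21, which holds 49412 of the identifiers.

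Named genes are Sparc, the 5 fibroblast genes, Foxp3, Cd3e, the SPARC family, of each other list up to 4 members with the highest mean in heart and those called, and the genes most like Sparc; some results under this rule are not reported here. Defining markers named for their zeros (Pdgfra, Tcf21, Cdh5, Tie1, Cldn5, Itga2b, Tnni3, Nppa, Csf1r), and C1qa and C1qc, were chosen after their values were seen, and so were the alternatives without heart Tconv 1 and with the larger set of libraries for the list counts. The gene and the lists were chosen with earlier results of these data known. Same-numbered libraries deviated together (r above 0.1) in 3 of 63 pairs, and the numbers were not taken to pair libraries. Yet 15 of 21 libraries correlated best with a library of their own number. Between spleen Tregs and spleen Tconvs r was 0.073, 0.091 and 0.058 for numbers 1, 2 and 3, and negative for unlike numbers. A pairing of some groups is therefore not excluded.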

Additional observations from a re-analysis of the deposited data

How the results depend on the processing

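Sparc stayed called as higher in heart in the averaged contrast under all 27 alternatives run (log2 9.03 to 11.96). Against single groups the edgeR calls depended on filter and tool. With every gene with a count, Sparc was called in heart Tregs against spleen, NDLN and MLN Tregs (11.65, 9.91 and 6.67) and in heart Tconvs against spleen and NDLN Tconvs (9.55 and 9.58). DESeq2 called the same 5 (11.99, 10.11, 6.74, 9.78 and 9.80) and limma-voom the Treg ones (11.11, 10.02 and 9.62). A fit of only the groups compared called it against spleen Tregs (11.67), and DESeq2 size factors or no scaling against NDLN Tconvs (9.67 and 10.01). Leaving out 1 library gave 11.16 to 12.10 against spleen Tregs, 9.33 to 10.76 against NDLN Tregs, 6.08 to 14.16 against MLN Tregs, 9.02 to 13.40 against spleen Tconvs, 9.17 to 10.16 against NDLN Tconvs, 9.97 to 11.15 averaged, 0.20 to 1.22 in heart Tregs over heart Tconvs and -0.73 to 1.63 for the interaction, negative without spleen Tconv 1. Heart Tregs over heart Tconvs turned to -0.63 with the library set as a covariate and to -0.28 in the 5-library side, and the interaction to -0.21 with the covariate; the cause was not tested. Permutation differences with 1 library left out were 5.86 to 6.80, 3.24 to 6.43 and -0.031 to 3.16 for heart Tregs against lymphoid Tregs, heart Tconvs against lymphoid Tconvs and heart Tregs against heart Tconvs, and the CV of Sparc was 41.1% to 75.9%.

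The number of genes called moved far more. For heart Tregs against spleen Tregs (22) it was 189 with every gene, 1352 in DESeq2, 284 in voom and 6 with only those groups. Against NDLN Tregs (80) it was 351, 1834, 457 and 14, with 146 under the replicate block and 35 in the 16-library side. Against MLN Tregs (10) it was 118, 1112, 226 and 0, with 2 under either other scaling, 4 under the block, 0 in the 16-library side and 1 in the 5-library side; edgeR gave 700 and 775 genes at an unadjusted p under 0.05 beside those counts of 0. Heart Tregs against heart Tconvs (10) gave 105, 981, 206 and 1, with 17 in the 5-library side. Heart Tconvs against spleen Tconvs (71) gave 354, 1470, 271 and 20, with 287 under the block, 12 with the covariate and 1 in the 16-library side. Against NDLN Tconvs (432) it was 785, 2706, 1049 and 28, with 80 and 34. The averaged contrast (1931) gave 3677 in DESeq2, 492 with the covariate and 251 in the 16-library side, and the interaction (1) 117, 1108 and 75 with every gene, DESeq2 and voom. With 1 library left out the counts ran from 5 to 29, 12 to 74, 1 to 28, 3 to 31, 3 to 187, 96 to 416, 1217 to 1799 and 1 to 12 in the order of these contrasts. Without scaling factors the higher and lower calls were 62 and 15 (main 46 and 25) against spleen Tconvs and 330 and 105 (main 231 and 201) against NDLN Tconvs. Fibroblast, collagen maturation and matricellular genes called as higher were 10, 0 and 1 in the 16-library side, against 16, 6 and 3 in the main fit. Beside them 0.811% and 8.42% of all genes were called as higher. The numbers of members tested also differed and are given with each list above.

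With the replicate number as a block Sparc was at 11.63, 9.89, 6.77, 9.57 and 9.60 in the 5 contrasts with a lymphoid group, 10.17 averaged, 0.77 in heart Tregs over heart Tconvs and 1.18 for the interaction, and the block changed no call of Sparc; 15 of 21 libraries correlated best with a library of their own number. Sparc did not pass the filter in a fit of only the heart Tconvs and spleen or NDLN Tconvs, and the 5-library side gave values for heart Tregs against MLN Tregs and heart Tconvs only.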
